A study of Mus musculus with 2 samples.

Results

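Id2, Id3, Tcf3, Tcf4, Tcf12 and Bhlhe40, the genes of helix-loop-helix transcription regulators described here, were chosen by symbol, and all 6 were found among the 22036 named genes of the deposited table. They were compared between 1 library of CD4 T cells cultured toward pathogenic Th17 cells (pTh17) and 1 library of cells cultured toward non-pathogenic Th17 cells (npTh17). Th17 cells are the IL-17-producing class of helper T cells. The cells were taken from wild-type mice, from both spleen and lymph node, and were cultured for 24 h on anti-CD3, coated at 10 μg/mL, and anti-CD28, coated at 5 μg/mL. To the pTh17 culture 20 ng/mL activin A was added, and to the npTh17 culture 2 ng/mL TGFβ1. Both also held 20 ng/mL IL-6 and antibodies that block IFNγ and IL-4. Age, sex and the number of mice were not given in the sources used here. Each condition had 1 library, so no difference below has a replicate check, there are no p-values, and a ratio is one between these libraries. The ranges in parentheses are 95% intervals that cover counting error only. They take each count as 1 independent fragment. In both libraries counts of 2 were more frequent than counts of 1, and halving every count widens the intervals, as given at the end.

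Helix-loop-helix proteins bind DNA as dimers at E-boxes, short sites of the form CANNTG. The E proteins, encoded by Tcf3 (E2A), Tcf4 (E2-2) and Tcf12 (HEB), are activators that dimerise through the helix-loop-helix and touch DNA through a basic stretch beside it. Despite their symbols, they are unrelated to the HMG-box factor TCF-1 encoded by Tcf7. Id proteins lack the basic stretch, so an E protein paired with an Id protein does not bind DNA. In T cells, E proteins and Id proteins set thresholds for development and for effector and regulatory fates, and Id genes are known targets of SMAD and T cell receptor signals. Bhlhe40 is a basic helix-loop-helix repressor that represses Il10 and favours Csf2 in mouse helper T cells, and that also acts on E-boxes of the circadian clock.

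The E-box is the sequence this family reads, so the stretch upstream of the RefSeq start of Id2, Tcf3 and Tcf12 is shown, with each CANNTG in capitals. These are the more abundant members of the Id and E-protein families per transcript length. The sequences are from RefSeq on GRCm38.p6, written 5′ to 3′ on the minus strand, where all 3 genes lie, and stop at the first base that GENCODE M21 counts as an exon of the gene. They lie at chr12:25096254-25096342, chr10:80433648-80433885 and chr9:72111872-72112069, and for Tcf12 the most upstream of its RefSeq starts was taken. The Tcf3 and Tcf12 stretches lie outside the gene as M21 draws it. The Id2 stretch lies inside the gene, in an intron of its longest M21 transcript, and M21 exon sequence separates it from the RefSeq start.
Id2: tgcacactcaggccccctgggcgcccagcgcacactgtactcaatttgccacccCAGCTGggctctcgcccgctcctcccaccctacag
Tcf3: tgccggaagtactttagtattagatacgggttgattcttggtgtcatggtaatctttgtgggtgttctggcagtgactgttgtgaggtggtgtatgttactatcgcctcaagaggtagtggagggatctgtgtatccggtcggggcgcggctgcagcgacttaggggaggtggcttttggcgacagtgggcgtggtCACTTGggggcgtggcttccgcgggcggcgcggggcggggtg
Tcf12: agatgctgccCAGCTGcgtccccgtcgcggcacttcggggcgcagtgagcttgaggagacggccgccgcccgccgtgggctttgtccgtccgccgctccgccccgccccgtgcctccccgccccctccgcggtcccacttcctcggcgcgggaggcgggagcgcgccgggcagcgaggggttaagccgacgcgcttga

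In the 250 bases upstream of these starts, searched on both strands, Id2, Tcf3 and Tcf12 each had 1 CANNTG. The same window of Id3 had 0, but it lies within the first exon of a GENCODE M21 transcript of Id3 and is not set against the others. A CANNTG is common, as 66.2% of the 32851 upstream windows in the RefSeq table held at least 1. The CAGCTG form found at Id2 and at Tcf12 stood in 13% of windows. The Id2 window also held 1 GGCGCC, a motif of BMP-responsive SMAD sites, which stood in 9.59% of windows and does not overlap the CANNTG. Past its first 89 bases the Id2 window also holds M21 exon sequence, so its comparison with these shares is a rough one. These matches describe letters only, and the series holds no measurement of binding.

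Both libraries had the markers of T helper cells. The 7 CD4 T cell markers measured summed to 3942 CPM (counts scaled to the library's total on named genes) in the pTh17 library and 4148 CPM in the npTh17 library, and each was above 1 CPM. The 9 Th17 markers summed to 1303 CPM in the pTh17 library and 1406 CPM in the npTh17 library, with 8 of them at or above 1 CPM. The depth was 30877656 counts on named genes in the pTh17 library and 33470161 in the npTh17 library. A mean of 1 CPM or more was reached by 10597 genes. Among them the median log2 ratio of pTh17 over npTh17 was −0.0045 and the central 90% of genes lay between −0.63 and 0.70.

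The inhibitor gene Id3 and the repressor gene Bhlhe40 were close to 2-fold higher in the pTh17 library. The E-protein gene Tcf3 was close to equal levels, and Tcf12 was lower in the pTh17 library, at a ratio of 0.839. All 6 genes passed the filter of 1 CPM. By counts, 5 had a ratio above 1 and 1 had a ratio below 1. The interval left out a ratio of 1 for 5 of them, the exception being Tcf3. How many of all genes tested have such an interval was not counted. These intervals hold counting error only and are narrow at this depth, so leaving out 1 is not read as a trait of the members. None of the 6 reached 2-fold, which 4.2% of the 10597 genes did in either direction, 2.25% toward the pTh17 library and 1.95% toward the npTh17 library. At 1.5-fold, 2 of the 6 were higher in the pTh17 library, where 7.2% of all genes tested were, and none was higher in the npTh17 library, where 5.76% were. The members' median log2 ratio was 0.44, against −0.0045 over all genes tested.

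**Figure D1:**
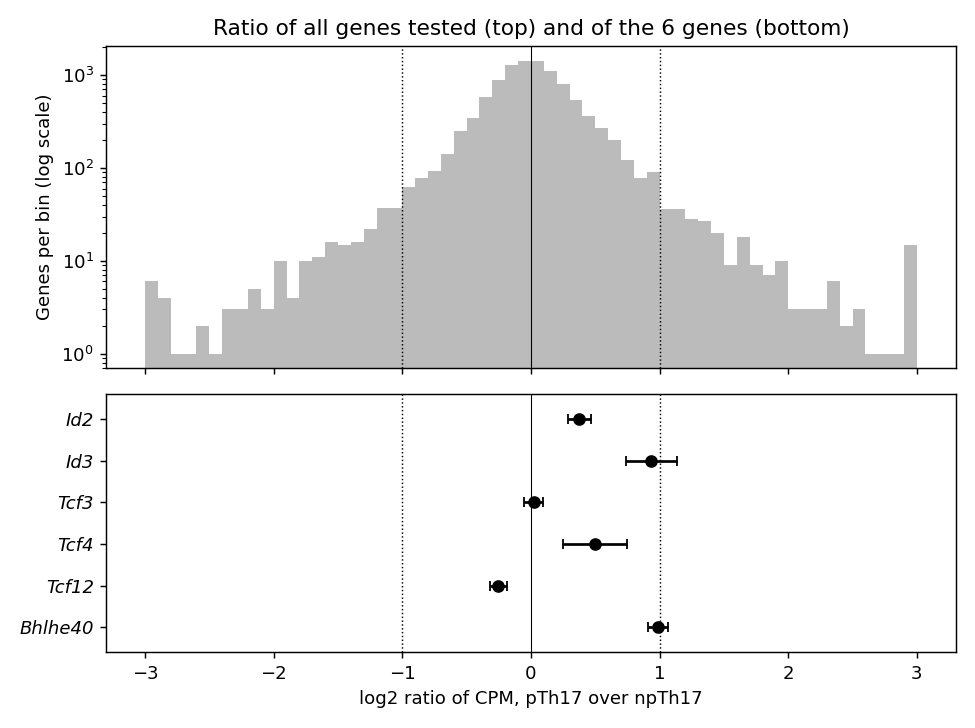
The upper panel shows how many of the 10597 genes tested fall in each bin of the log2 ratio of CPM, pTh17 over npTh17, on a log axis of genes per bin; the outermost bins also hold genes beyond them. The lower panel shows the 6 genes as points with 95% counting intervals on the same axis, and the dotted lines mark 2-fold: Id3 (0.93) and Bhlhe40 (0.99) lie just inside the line on the pTh17 side and Tcf12 (−0.25) is the member below 0.

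Id2 and Id3 are the Id genes with most transcript in these cells. Id3 (ENSMUSG00000007872, chromosome 4, 136143497 to 136145755, plus strand) had 579 counts in the pTh17 library and 327 in the npTh17 library. That was 18.7 CPM in the pTh17 library and 9.78 CPM in the npTh17 library, a 1.91-fold higher level in pTh17 (1.67 to 2.20). Its log2 ratio of 0.93 was exceeded by 2.80% of the genes tested. By FPKM, the authors' unit per transcript length, Id3 stood at 12.8 in the pTh17 library and 6.72 in the npTh17 library, and the 1.91-fold ratio was the same.

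Id2 (ENSMUSG00000020644, chromosome 12, 25093799 to 25097140, minus strand) was higher in the pTh17 library by counts but not by FPKM. It had 2179 counts in the pTh17 library and 1814 in the npTh17 library, a 1.30-fold higher level in pTh17 (1.22 to 1.38). The deposited FPKM values were 36.8 in the pTh17 library and 37.8 in the npTh17 library, with overlapping counting intervals of 35.3 to 38.4 and 36.1 to 39.6. The log2 ratio was therefore 0.38 by counts and −0.039 by log2(FPKM + 0.1). Such a gap was uncommon, since 1.61% of the genes tested had a difference between the 2 scales as far from the median as Id2.

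The transcript length that links each count of Id2 to its FPKM value was 1916 bases in the pTh17 library and 1432 bases in the npTh17 library. GENCODE M21 lists transcripts of 1969, 1270 and 958 bases for Id2, the longest of which starts upstream of the others. For Id3, the implied length was 1462 bases in the pTh17 library and 1454 bases in the npTh17 library. Both exceed the longest M21 transcript of Id3, at 1278 bases. Implied lengths therefore cannot be matched directly to M21 lengths, for Id2 either, and only their change between the libraries is read. Whether the Id2 libraries differ in transcript use was not tested, so the direction of Id2 at the gene level depends on the unit.

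The other members of the Id family were low or undetected. Id1, which is the classical target of BMP signals, had 198 counts in the pTh17 library and 92 in the npTh17 library, a 2.31-fold higher level in pTh17 (1.81 to 3.01). On the FPKM scale Id1 was at 5.86 in the pTh17 library and 2.46 in the npTh17 library, below Id2 and Id3 in both. Id4 had 0 counts in both libraries, which allows up to 0.097 CPM in the pTh17 library and 0.0898 CPM in the npTh17 library.

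Among the E proteins, the level of Tcf3 was close in the libraries. Tcf3 (ENSMUSG00000020167, chromosome 10, 80409514 to 80433647, minus strand) had 2904 counts in the pTh17 library and 3090 in the npTh17 library. Its ratio of pTh17 over npTh17, 1.02, had an interval of 0.965 to 1.07 that spans 1. On the FPKM scale it was 28.7 in the pTh17 library and 28.2 in the npTh17 library. The gene gives rise to E12 and E47 by alternative splicing, which counts for the whole gene do not separate.

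Tcf12 (ENSMUSG00000032228, chromosome 9, 71842688 to 72111871, minus strand), the partner of E2A in thymocytes, was lower in the pTh17 library. It had 3464 counts in the pTh17 library and 4461 in the npTh17 library, a ratio of pTh17 over npTh17 of 0.839 (0.803 to 0.877). The FPKM values were 18.3 in the pTh17 library and 22.5 in the npTh17 library. Of all genes tested, 20.2% had a lower ratio, so a difference of this size was common between these libraries.

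Tcf4 (ENSMUSG00000053477, chromosome 18, 69343356 to 69689079, plus strand), best known for its role in plasmacytoid dendritic cells, was the least abundant member. It had 308 counts in the pTh17 library and 236 in the npTh17 library, a 1.41-fold higher level in pTh17 (1.19 to 1.68). On the FPKM scale it was at 1.70 in the pTh17 library and 1.01 in the npTh17 library, a 1.69-fold ratio. The difference between the scales was as far from the median as that of Tcf4 for 4.55% of genes.

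Most markers listed for other cells that carry much Tcf4 had few or no counts. Siglech, which marks plasmacytoid dendritic cells, and Pax5, a B cell gene, had 0 counts in both libraries. Higher in pTh17 than in npTh17 were Cd79a (11 and 6 counts), Cd79b (11 and 0), Ms4a1 (3 and 0), Spib (2 and 0) and Cox6a2 (6 and 0). Ccr9 went the other way, with 14 counts in the pTh17 library and 30 in the npTh17 library. Whether such cells add to the Tcf4 counts was not tested. The 7 B cell markers summed to 0.808 CPM in the pTh17 library and 0.18 CPM in the npTh17 library, with 4 at 0 in the pTh17 library and 6 in the npTh17 library. The 5 markers listed for plasmacytoid dendritic cells summed to 51.4 CPM in the pTh17 library and 32.6 CPM in the npTh17 library. Nearly all of that was Bst2, an interferon-induced gene also transcribed in T cells, with 1566 counts in the pTh17 library and 1059 in the npTh17 library. Fewer cells of a type and less RNA per cell cannot be told apart in these bulk libraries.

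Bhlhe40 (ENSMUSG00000030103, chromosome 6, 108660629 to 108666925, plus strand) had the highest ratio of the 6 genes. It had 3919 counts in the pTh17 library and 2136 in the npTh17 library, or 127 CPM in the pTh17 library and 63.9 CPM in the npTh17 library. The 1.98-fold higher level in pTh17 had an interval of 1.88 to 2.09, which spans 2-fold, and 2.35% of the genes tested had a higher ratio. On the FPKM scale it was at 36.0 in the pTh17 library and 18.1 in the npTh17 library, also 1.98-fold. An antisense gene, 0610040F04Rik, shares 118 exonic bases with it and is not among the named genes of the deposited table. The protocol describes no strand-marking step. Its paralog Bhlhe41 had 0 counts in the pTh17 library and 2 in the npTh17 library.

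The order of levels per transcript length differed mainly by the place of Bhlhe40. In the pTh17 library the order from high to low on the FPKM scale was Id2, Bhlhe40, Tcf3, Tcf12, Id3 and Tcf4. In the npTh17 library it was Id2, Tcf3, Tcf12, Bhlhe40, Id3 and Tcf4. Id2 and Bhlhe40, neighbours in the pTh17 library at 36.8 and 36.0 FPKM, had overlapping counting intervals of 35.3 to 38.4 and 34.8 to 37.1. All other neighbours in either library lay outside each other's intervals.

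**Figure D2:**
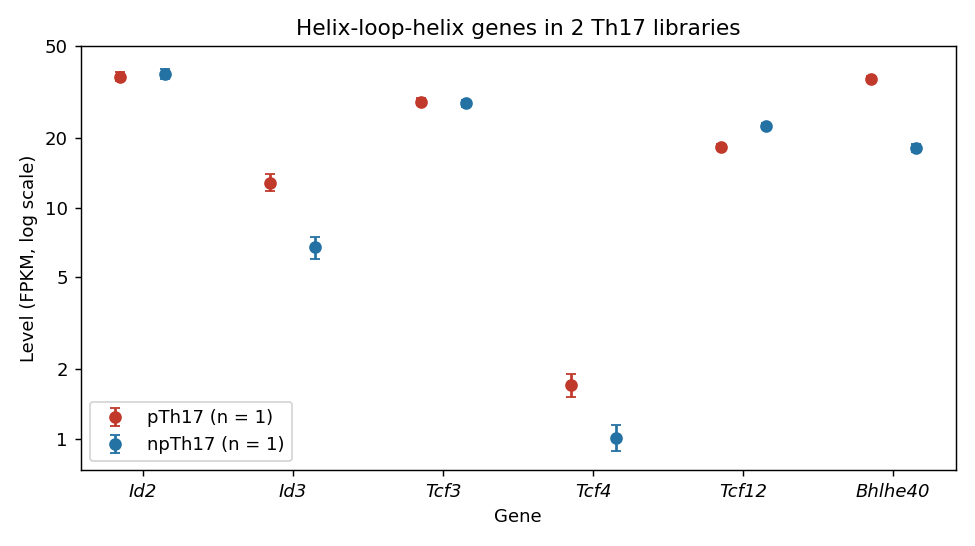
Each point is the deposited FPKM value of 1 gene in 1 library on a log axis, pTh17 in red on the left and npTh17 in blue on the right, with bars for the 95% counting interval. Bhlhe40 (36.0 in pTh17 and 18.1 in npTh17) and Id3 (12.8 in pTh17 and 6.72 in npTh17) are separated most clearly by their intervals. The intervals of Id2 and of Tcf3 overlap between the libraries, and Tcf4 is lowest in both.

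The summed levels of inhibitors and E proteins were near parity on the FPKM scale. Id2 and Id3 summed to 49.7 FPKM in the pTh17 library and 44.6 FPKM in the npTh17 library. Tcf3, Tcf4 and Tcf12 summed to 48.6 FPKM in the pTh17 library and 51.7 FPKM in the npTh17 library. The ratio of Id to E-protein transcript was 1.02 in the pTh17 library and 0.862 in the npTh17 library. Id3 made up 25.8% of the Id sum in the pTh17 library and 15.1% in the npTh17 library, and Id2 made up the rest. By CPM, which is not per length, the share of Id3 was 21.0% in the pTh17 library and 15.3% in the npTh17 library.

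Within the E-protein sum, Tcf3 held 59.0% in the pTh17 library and 54.6% in the npTh17 library. Tcf12 held 37.5% in the pTh17 library and 43.4% in the npTh17 library. Tcf4 held 3.50% in the pTh17 library and 1.95% in the npTh17 library. These sums are of transcripts and not of protein, and the Id sum inherits the unit dependence of Id2.

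Most settings of the calculation left the members' ratios within their counting intervals. The scaling of the libraries, the library total and the prior count moved none of the 6 ratios beyond them. These settings had little room to do so. The TMM factors were 1.0015 in the pTh17 library and 0.9985 in the npTh17 library, and the members' counts were far above the prior counts. The exceptions were Id2, which reversed with FPKM, and Tcf3, whose log2 ratio of 0.022 became −0.056 when a trend on transcript length and GC content was removed.

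**Figure D3:**
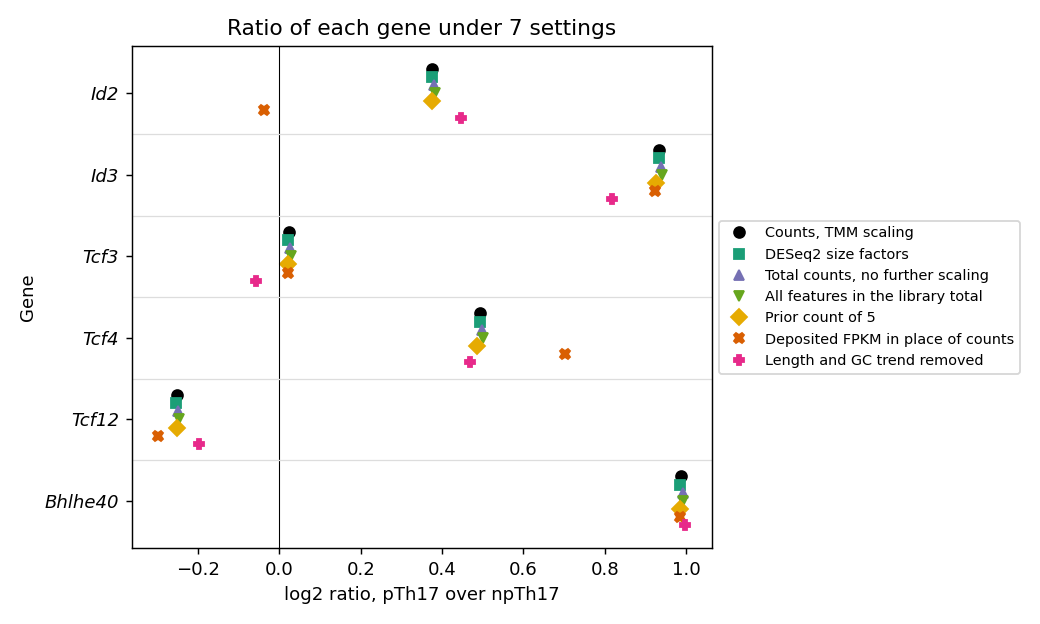
The log2 ratio of pTh17 over npTh17 is shown for each of the 6 genes under 7 settings, 1 symbol per setting. Id3 and Bhlhe40 stay on the pTh17 side and Tcf12 on the npTh17 side under every setting shown, while the FPKM symbol of Id2 (−0.039) lies across 0 from the count symbol (0.38).

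Of 15 other helix-loop-helix genes measured, Id1 was the 1 past 2-fold, as were 4.2% of all genes tested in either direction. The list had 9 genes above a ratio of 1 and 6 below, with a median log2 ratio of 0.099. Mlx, a partner of glucose-sensing factors, was 1.41-fold higher in the npTh17 library (1.30 to 1.52). Ahr, whose product senses aryl hydrocarbons, was 1.37-fold higher in the npTh17 library (1.33 to 1.41), and Usf2, which binds E-boxes, 1.26-fold (1.19 to 1.34). Tfap4, a factor induced by Myc, was 1.27-fold higher in the pTh17 library (1.19 to 1.37). Lyl1, Tal1, Tal2, Ascl2 and Msc, which encode tissue-restricted partners of E proteins, had at most 10 counts in either library.

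Of 8 cofactors of E proteins measured, 2 had a ratio above 1 and 6 below, and the median log2 ratio was −0.093. None reached 2-fold, which 4.2% of all genes tested did in either direction. At that share a list this short can hold none. The acetyltransferase gene Kat2b was 1.26-fold higher in the npTh17 library (1.17 to 1.36) and Crebbp 1.19-fold (1.13 to 1.26).

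Genes linked to E or Id proteins in lymphocytes spread in both directions. Of 22 measured, 7 had a ratio above 1 and 15 below, with a median log2 ratio of −0.19. Gfi1, the gene of a zinc finger repressor, was past 2-fold in the pTh17 library at 67.8 CPM, against 14.6 CPM in the npTh17 library. Of all genes tested, 2.25% were past 2-fold toward the pTh17 library and 1.95% toward the npTh17 library. The 4 list genes past 2-fold in the npTh17 library were Cxcr5, Foxp3, Il10 and Gata3. Of these, Gata3 had 20 counts in the pTh17 library and 46 in the npTh17 library. At 0.647 CPM in the pTh17 library and 1.38 CPM in the npTh17 library, Gata3 passed the 1 CPM filter only through the npTh17 library. Its 2.08-fold ratio had an interval of 1.23 to 3.80 that spans 2-fold. Cxcr5, which is restrained by Id proteins in mouse follicular helper cells, had 989 counts in the pTh17 library and 3465 in the npTh17 library. Foxp3, the regulatory T cell factor gene whose promoter E2A binds in mouse cells, had 1181 counts in the pTh17 library and 3026 in the npTh17 library.

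The list of genes linked to Bhlhe40 mixes genes that it represses with genes that it favours, so its counts by direction cannot speak about Bhlhe40. Of 7 measured, 4 had a ratio above 1 and 3 below, with a median log2 ratio of 0.0062. Il2, the T cell growth factor gene, had the largest ratio, with 988 counts in the pTh17 library and 206 in the npTh17 library, a 5.16-fold higher level in pTh17 (4.46 to 6.05). Il10, which Bhlhe40 represses in mouse T cells, had 153 counts in the pTh17 library and 366 in the npTh17 library. Csf2, which Bhlhe40 favours, was under 1 CPM, with 9 counts in the pTh17 library and 21 in the npTh17 library. Its ratio of pTh17 over npTh17, 0.488, had an interval of 0.187 to 1.05 that spans 1. Rrm2, a ribonucleotide reductase gene of dividing cells, was 1.31-fold higher in the pTh17 library (1.28 to 1.35).

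No gene of the circadian clock list passed 2-fold, which 4.2% of all genes tested did in either direction. At that share a list this short can hold none. Of 14 measured, 5 had a ratio above 1 and 9 below, with a median log2 ratio of −0.15. Rora, the gene of a nuclear receptor of Th17 cells and the clock, was 1.90-fold higher in the npTh17 library (1.82 to 1.99). Npas2, the gene of a clock activator, was 1.71-fold higher in the npTh17 library (1.45 to 2.01), and Ciart, the gene of a clock repressor, 1.44-fold (1.15 to 1.81). Cry2, which encodes another repressor, was 1.33-fold higher in the pTh17 library (1.17 to 1.53). Its paralog Cry1 went the other way, 1.24-fold higher in the npTh17 library (1.17 to 1.33), as did Dbp of the same list, 1.31-fold (1.01 to 1.72). The log2 ratios of Per1, at 0.073, and of Nr1d2, at 0.030, had intervals that span 0.

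A list of BMP and activin receptors, SMADs, their response genes and T cell receptor-induced factors had 16 measured genes. Of these, 4 had a ratio above 1 and 12 below, and the median log2 ratio was −0.34, against −0.0045 over all genes tested. In the npTh17 direction 3 were past 2-fold, as were 1.95% of all genes tested, and none was in the pTh17 direction. Eng, which encodes a TGF-β co-receptor, had 73 counts in the pTh17 library and 321 in the npTh17 library, 4.03-fold higher in npTh17 (3.15 to 5.32). Acvr1, a type I receptor gene, was 2.12-fold higher in the npTh17 library (1.69 to 2.71). The BMP receptor gene Bmpr2 was 2.02-fold higher in the npTh17 library (1.88 to 2.17), at 1139 counts in the pTh17 library and 2487 in the npTh17 library. Klf10, an early TGF-β response gene, was 1.56-fold higher in the npTh17 library (1.46 to 1.67). Acvr2a, another receptor gene of the list, was 1.95-fold higher in the npTh17 library (1.84 to 2.07). Bambi, with 67 counts in the pTh17 library and 47 in the npTh17 library, was 1.53-fold higher in the pTh17 library (1.05 to 2.29). The Id genes are not on this list. Id1 and Id3 were higher in the pTh17 library, while the log2 ratio of Id2 was 0.38 by counts and −0.039 by FPKM. A link between this list and the Id genes was not tested.

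**Figure D4:**
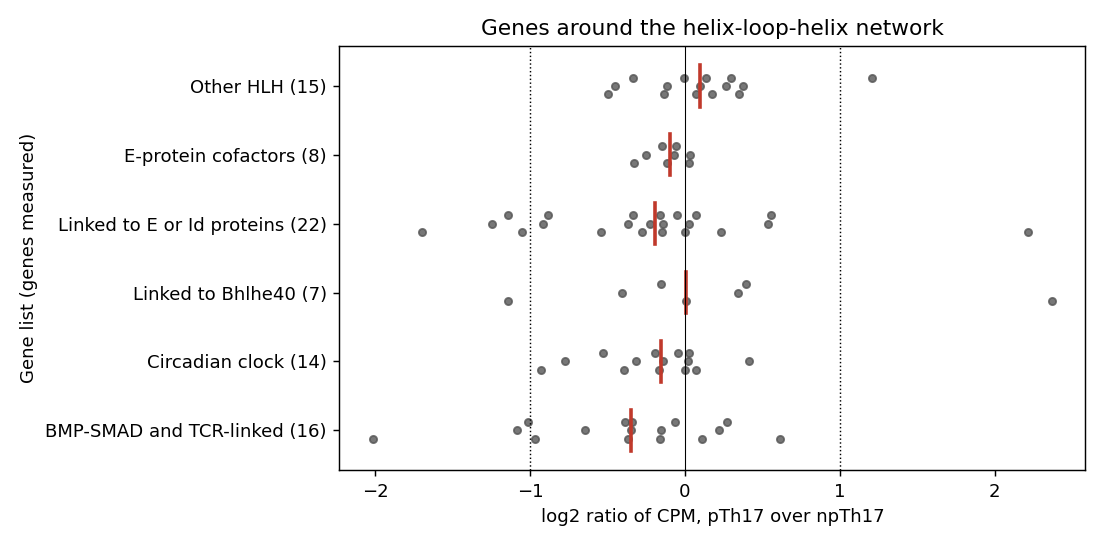
Each grey point is the log2 ratio of CPM, pTh17 over npTh17, of 1 measured gene of a list, and the red bar is the list's median; dotted lines mark 2-fold and the number of genes is in parentheses. The medians run from −0.34 for the list of BMP-SMAD and T cell receptor-linked genes to 0.099 for the other helix-loop-helix genes.

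The genes most alike to a member in level and ratio over the 2 libraries were sought among genes of similar mean CPM. For Bhlhe40 the closest of 1166 genes were Nfkbia, which encodes an NF-κB inhibitor, at a log2 ratio of 0.92, and Pim1, which encodes a kinase induced by cytokines, at 1.09. For Id3 the closest of 785 genes was Trip10 at 0.93, and for Id2 the closest of 1322 was Patz1 at 0.38. For Tcf12 it was Ylpm1 at −0.25, for Tcf3 Dlat at 0.022 and for Tcf4 Rims3 at 0.49. With 1 value per condition, likeness describes a single ratio and level.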

How the data were processed

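The authors deposited whole-number counts and FPKM values (fragments relative to transcript length and depth) for the same genes in 2 tables that name 1 column for each library, per the file headers. Build mm10 was used, per the submitters' processing notes; for the aligner, counter and annotation nothing is given in the sources used here. Numbered features that carry no gene name held 2.50% of the pTh17 counts and 2.90% of the npTh17 counts and were left out. Libraries were scaled with TMM in edgeR 4.0.16 (R 4.3.3); ratios used a prior count of 1. Intervals are exact Clopper-Pearson intervals of the share of counts for ratios and exact Poisson intervals for FPKM, both for counting error only; a count of 0 was bounded by 3 counts. Calculations were tested on simulated data that held counting error only. The intervals assume the same, so that test cannot show how well they hold for the deposited counts. Alternatives were DESeq2 1.42.0 size factors, unscaled totals, all features, a prior count of 5, FPKM with 0.1 added, a length and GC trend, other filters and a 1.5-fold threshold. Positions are GENCODE M21. The members, gene lists and naming rule (all members, and up to 6 genes of each list with the largest ratios) were chosen with earlier results of these data known. Further list genes were named after their values were seen: Csf2, Per1, Nr1d2, and those with few or no counts. Upstream sequences were searched for Id2, Id3, Tcf3 and Tcf12.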

Additional observations from a re-analysis of the deposited data

How the results depend on the processing

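With 1 library per condition, the culture, the mice and the library preparation cannot be told apart from the ligand. No paired analysis was possible because there was 1 library per condition. With FPKM in place of counts, the log2 ratio of Id2 was −0.039, against 0.38 by counts. Tcf3 had a log2 ratio of −0.056 once a trend on length and GC was taken out. The other alternative ratios of the members stayed within their counting intervals. With every count halved, an alternative chosen after seeing the data because counts of 2 were 3.88 times as frequent as counts of 1 in the pTh17 library and 4.57 times in the npTh17 library, the fold interval was 1.57 to 2.33 for Id3, 1.84 to 2.14 for Bhlhe40 and 1.10 to 1.81 for Tcf4. Intervals of the list genes are given without halving and would be wider with it, and the bound for a count of 0 would be higher. The number of genes past 2-fold was 445, and it was 197 when a mean of 5 CPM was required, 2328 when low genes were kept and 1373 at 1.5-fold. The Id to E-protein ratio was 0.413 in the pTh17 library and 0.275 in the npTh17 library by CPM, which is not per length. With Id1 added, also chosen after seeing the data, it was 1.14 in the pTh17 library and 0.909 in the npTh17 library. The cause of these changes was not tested, apart from fewer or more genes passing a filter or fold.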
